A study of Homo sapiens with 8 samples.

Results

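MYC, NCL, PIM1 and PIM2, genes that link growth signals to ribosome production and survival, were followed in L363 cells treated with the small-molecule IKKβ inhibitor MLN120b. Their features were found by gene name, through the platform's pairing of features with genes. Of 15246 array features 11 were assigned to them, 4 to MYC, 1 to NCL, 4 to PIM1 and 2 to PIM2, among 4604 named genes in all. L363 is an established human cell line that the labels describe as multiple myeloma from bone marrow. On each of 8 arrays with 2 dyes, cDNA of cells kept at 37 °C with 12.5 µM MLN120b was labelled with Cy5, and cDNA of L363 cells with DMSO, the solvent alone, with Cy3. Treatment lasted 8 h on 2 arrays (samples 1 and 2), 12 h on 3 (samples 1, 2 and 3) and 24 h on 3 (samples 1, 2 and 3). All arrays hold 1 cell line and 1 dose, and the dyes were never exchanged, so a dye effect of a feature and the treatment cannot be told apart. The labels do not say whether samples are separate cultures, and p-values then reflect no more than the spread among these samples, possibly a technical one.

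MYC is a transcription factor that pairs with MAX on E-box sequences and drives genes of growth, metabolism and ribosome assembly. Many myelomas depend on it. NCL encodes nucleolin, an abundant protein of the nucleolus that acts in ribosomal RNA synthesis and processing and whose gene is a known target of MYC. PIM1 and PIM2 encode serine/threonine kinases that are active as soon as they are made, so that their output follows their transcription; cytokines induce them through JAK and STAT proteins, NF-κB is also known to induce PIM genes, and PIM2 in particular is prominent in myeloma cells. PIM kinases phosphorylate BAD and cell cycle inhibitors and can stabilise the MYC protein.

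The values are log2 ratios centred on each array's median, likely MLN120b over DMSO, so that a value below 0 means a lower ratio than the array's middle feature. The direction is likely, not stated, and a turned sign would reverse every direction below. Arrays carried values for 6344 to 13007 features. The numbers in the labels' database identifiers fall into 3 groups of nearby values, here named database runs. Run 1 comprises sample 3 of the 12 h and 24 h groups, run 2 comprises sample 2 of the 8 h group with sample 1 of both later groups, and run 3 comprises sample 1 of the 8 h group with sample 2 of both later groups. The arrays of run 2 stood apart: their ratios had SDs of 1.00 to 1.42 over features, against 0.35 and 0.58 in run 1 and 0.21 to 0.28 in run 3. Each result on the 4 genes is therefore given by run as well. A ratio holds no expression level, so the cell type could not be checked by the level of its markers: 10 of 10 plasma cell marker genes had a tested ratio, and so had 9 of 10 T cell and 5 of 9 myeloid markers. The median ratio of the plasma cell markers lay between 0.042 and 0.45 on the arrays, that of the T cell markers between -0.26 and 0.59 and that of the myeloid markers between -0.91 and 0.68, and their part in the results was not tested. As a check of the inhibitor, NFKBIA and TNFAIP3, which encode feedback inhibitors that NF-κB induces, lay below 0 on 8 of 8 arrays, at -1.60 to -0.30 and -1.64 to -0.10. Of 3460 rows (named genes, or features with no gene listed) with a value on every array, 1.30% were below 0 on all 8. Neither gene passed over the 3 times (limma adjusted p = 0.46 and 0.87 by Benjamini-Hochberg). NFKBIA nevertheless ranked 1 by unadjusted p over the 3 times among the 5411 rows tested. The check was weaker at 8 h, where the fitted means were -0.42 ± 0.27 for NFKBIA and -0.38 ± 0.36 for TNFAIP3 (SE). They were -1.25 and -0.95 at 12 h, and -1.11 and -1.20 at 24 h. By unadjusted p in limma, NFKBIA ranked 720 at 8 h and 1 at both later times. TNFAIP3 ranked 1690, 17 and 7 at 8 h, 12 h and 24 h.

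The stretches upstream of NCL, PIM1 and PIM2 are shown because the 3 genes are set side by side below and PIM1 and PIM2, which encode related kinases, mostly lie on opposite sides of 0. Each is the 250 bases before the RefSeq start of the gene in GRCh38.p14, 5′ to 3′ on the gene's strand, and 3 of the 4 genes had an entry. NCL lies at chr2:231464485-231464734 on the minus strand, PIM1 at chr6:37169902-37170151 on the plus strand, and PIM2 at chrX:48919025-48919274 on the minus strand. Capitals mark matches on either strand to the motifs searched: the E-box CACGTG, the STAT motif TTCNNNGAA, the NF-κB consensus, the octamer ATGCAAAT, the GC box GGGCGG and the CCAAT box CCAAT. No marked match overlaps another. The octamer, which B cell octamer-binding factors recognise, was added to the search after the PIM2 sequence had been read.
NCL: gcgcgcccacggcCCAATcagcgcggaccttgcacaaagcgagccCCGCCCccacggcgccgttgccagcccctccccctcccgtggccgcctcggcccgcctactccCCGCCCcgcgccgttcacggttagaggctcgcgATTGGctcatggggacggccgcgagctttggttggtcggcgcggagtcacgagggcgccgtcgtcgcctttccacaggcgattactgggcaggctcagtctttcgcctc
PIM1: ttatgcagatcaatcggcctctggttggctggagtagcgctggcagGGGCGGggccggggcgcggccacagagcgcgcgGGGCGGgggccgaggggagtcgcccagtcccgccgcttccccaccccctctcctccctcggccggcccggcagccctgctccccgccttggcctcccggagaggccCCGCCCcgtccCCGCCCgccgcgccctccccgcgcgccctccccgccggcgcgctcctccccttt
PIM2: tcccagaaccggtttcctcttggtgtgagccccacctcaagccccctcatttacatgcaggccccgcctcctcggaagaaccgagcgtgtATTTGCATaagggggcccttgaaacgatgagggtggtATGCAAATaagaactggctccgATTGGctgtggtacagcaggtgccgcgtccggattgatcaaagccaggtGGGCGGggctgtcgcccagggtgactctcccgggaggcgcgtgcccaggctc
The PIM2 stretch held 2 octamers, which 1.63% of the 35116 upstream stretches of the same length in the table hold at least once, with 1 GC box and 1 CCAAT box. PIM1 held 4 GC boxes and no other match, and NCL held 2 GC boxes and 2 CCAAT boxes. A GC box occurs in 42.6% of all stretches and a CCAAT box in 32.0%. None of the 3 stretches holds the letters of the E-box (6.34% of all stretches), the STAT motif (6.57%) or the NF-κB consensus (9.96%), which says only that these letters are not in this window. GC content was 79.6% for PIM1, 72.0% for NCL and 61.2% for PIM2, against a median of 58%.

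MYC had a ratio above 0 on 7 of 8 arrays. Its features averaged 0.49 on sample 1 and 0.69 on sample 2 at 8 h, -0.18, 0.42 and 0.018 on samples 1, 2 and 3 at 12 h, and 0.14, 0.58 and 0.30 on samples 1, 2 and 3 at 24 h. The highest value and the lowest both came from run 2. The 3 times overlap, except that both values at 8 h exceed all 3 at 12 h. Over all 3460 rows (named genes, or features with no gene listed) with a value on every array, 6.18% were above 0 on at least 7 arrays.

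Over the 3 times MYC averaged 0.34 ± 0.13 on the log2 scale (SE, n = 8), which did not pass in limma's test (unadjusted p = 0.027, adjusted p = 0.87 by Benjamini-Hochberg over 5411 rows). No row passed, so 0% were called. At an unadjusted p under 0.05 limma gave 184 rows, 3.4% of those tested, and MYC was the only one of the 4 genes among them. The fitted mean was 0.59 ± 0.25 at 8 h (n = 2), 0.085 ± 0.20 at 12 h (n = 3) and 0.34 ± 0.20 at 24 h (n = 3), with adjusted p from 0.98 to 1.00 (limma). At 8 h the unadjusted p was 0.044 for MYC, where 2.4% of rows were under 0.05; at 24 h 2.01% were, and none of the 4 genes. The difference between 12 h and 8 h was -0.50 ± 0.32, and that between 24 h and 8 h -0.25 ± 0.32 (SE; limma adjusted p = 0.99 for both), with 0% of rows called in either and 0.813% and 1.18% of rows at an unadjusted p under 0.05 for 24 h and 12 h against 8 h.

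**Figure D1:**
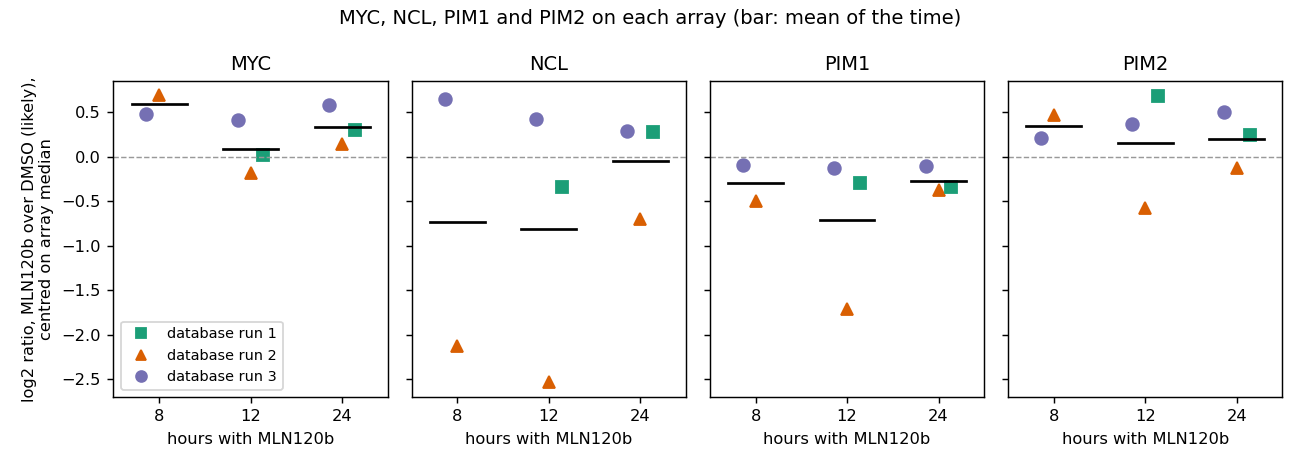
Centred log2 ratio (y axis) of MYC, NCL, PIM1 and PIM2 after 8, 12 or 24 hours with MLN120b (x axis), 1 point per array, with colour and shape for the database run and a bar for the mean of the time. All 8 points of PIM1 lie below 0, 7 of 8 of MYC lie above it, and NCL splits, with run 2 at -2.54 to -0.70 and run 3 at 0.29 to 0.66.

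The 4 MYC features agreed closely in run 3 and came apart in run 2. In run 3 all 12 values lay between 0.22 and 0.68, and the SD between features of 1 array was 0.12, 0.19 and 0.081 at 8 h, 12 h and 24 h. In run 2 that SD was 0.68, 0.92 and 0.50. On sample 1 at 12 h the features ran from -1.02 to 1.12, so the mean of -0.18 there is a mean of values that point both ways. Run 1 had 1 array of each kind: an SD of 0.063 on sample 3 at 24 h and of 0.56 on sample 3 at 12 h.

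One MYC feature, 19381_1, gave the highest MYC value on 4 arrays, those of run 2 and sample 3 at 12 h. It read 0.44 and 1.51 on samples 1 and 2 at 8 h, 1.12, 0.22 and 0.70 on samples 1, 2 and 3 at 12 h, and 0.82, 0.49 and 0.35 on samples 1, 2 and 3 at 24 h. It was thus above 0 on 8 of 8 arrays, as were 1.07% of the 4413 features with a value on every array. It exceeded the mean of the other MYC features by 1.09, 1.73 and 0.91 on the arrays of run 2 and by 0.91 on sample 3 at 12 h, and differed from it by -0.26 to 0.065 on the other 4 arrays. Fitted as single features, the 4 averaged 0.74 ± 0.17 for 19381_1, 0.26 ± 0.17 for 15841_1, 0.23 ± 0.18 for 28401_1 and 0.12 ± 0.17 for 29723_1 over the 3 times (SE, n = 8). For 19381_1 the unadjusted p was 0.0017 and the adjusted p 0.87 over 7497 features (limma), where 3.68% of features had an unadjusted p under 0.05 and 0% passed after adjustment. It was the only one of the 10 fitted features of the 4 genes with an unadjusted p under 0.05.

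**Figure D2:**
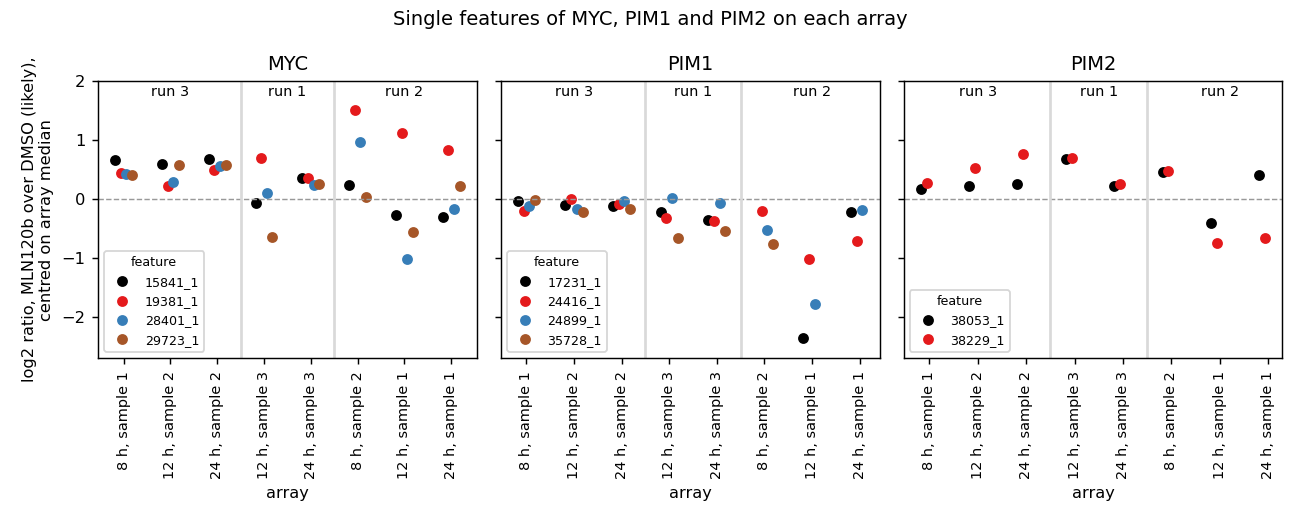
Centred log2 ratio (y axis) of each feature of MYC, PIM1 and PIM2 on each array (x axis), with the arrays ordered by database run. The 4 MYC features lie between 0.22 and 0.68 in run 3 and between -1.02 and 1.51 in run 2, and the 4 PIM1 features lie at or below 0.016 on all arrays where they have a value.

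Because the arrays differ in spread, the rank of a ratio within its own array was also taken, as the percentage of the 4472 to 8496 rows with a value there whose ratio was lower. MYC stood at percentile 98.5, 96.8 and 98.1 on the arrays of run 3 at 8 h, 12 h and 24 h. In run 1 it stood at 53.1 at 12 h and 89.6 at 24 h, and in run 2 at 80.5, 41.1 and 58. By run, MYC averaged 0.49 ± 0.080 in run 3 (SD, n = 3), 0.16 ± 0.20 in run 1 (n = 2) and 0.22 ± 0.44 in run 2 (n = 3). Without run 2, which leaves only sample 1 at 8 h, its mean over the 3 times was 0.38.

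The partners and regulators of MYC showed no shift that passed. Of 16 genes of the MYC network, which includes its partner MAX, the MXD antagonists and the RUVBL helicases, 7 were tested and 0 passed in either direction; 1 lay above 0 and 6 below, with a median of -0.051, where all rows had a median of -0.0077 and 48.4% lay above 0. MAZ, a zinc finger protein that binds the MYC promoter, was at -0.41 ± 0.26 (SE, n = 8), and MYCN, the neural paralogue of MYC, at 0.32 ± 0.36. The MYCN ratio ran from -1.99 (sample 1 at 12 h) to 2.85 (sample 2 at 8 h), both of run 2, and its mean was -0.17 without the latter. MAZ was at 0.081 without run 2. MAX itself lay at -0.041 ± 0.13.

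Of 14 upstream regulators of MYC 8 were tested and 0 passed; 6 lay above 0, with a median of 0.047. PRDM1, which encodes the plasma cell factor Blimp-1 that represses MYC, was at 0.32 ± 0.12 (SE, n = 8; limma unadjusted p = 0.027, adjusted p = 0.87) and lay above 0 on 8 of 8 arrays, from 0.044 to 0.72; 1.39% of rows with a value on every array did so. GSK3B, the kinase that marks the MYC protein for destruction, was at -0.20 ± 0.20 (n = 7). Its ratio was -1.51 on sample 1 at 12 h, and leaving that array out gave -0.045.

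NCL split by database run. Its single feature read 0.66 and -2.13 on samples 1 and 2 at 8 h, -2.54, 0.42 and -0.33 on samples 1, 2 and 3 at 12 h, and -0.70, 0.29 and 0.27 on samples 1, 2 and 3 at 24 h. The 3 values of run 2 were the 3 lowest and the 3 values of run 3 the 3 highest. Run means were -1.79 ± 0.96 in run 2 (SD, n = 3), -0.030 ± 0.43 in run 1 (n = 2) and 0.45 ± 0.19 in run 3 (n = 3).

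The mean of NCL over the 3 times was -0.53 ± 0.38 (SE, n = 8, limma adjusted p = 0.87). It turned to 0.33 without run 2, which leaves only sample 1 at 8 h. Sample 2 at 8 h alone moved it to -0.070 when left out, sample 1 at 12 h to -0.25, and sample 1 at 8 h to -0.996. The fitted means were -0.74 ± 0.75 at 8 h, -0.82 ± 0.61 at 12 h and -0.047 ± 0.61 at 24 h, none of which passed (adjusted p from 0.93 to 1.00). Within its arrays NCL stood at percentile 99.5, 96.8 and 86.6 in run 3, at 26.8 and 87.6 in run 1, and at 1.71, 1.90 and 21.6 in run 2. With 1 feature, no second feature could show whether a reading of the gene repeats on the same array.

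**Figure D3:**
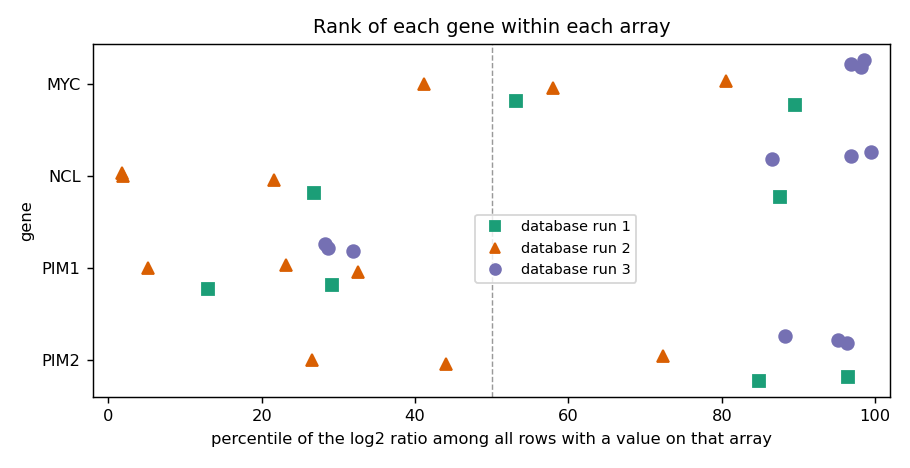
Percentile of the log2 ratio among all rows with a value on the same array (x axis, 0 to 100) for MYC, NCL, PIM1 and PIM2 (y axis), 1 point per array, with colour and shape for the database run. PIM1 lies at 32.6 or lower on every array, and MYC, NCL and PIM2 lie at 86.6 or higher in run 3.

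Other genes of the nucleolus and of ribosome assembly showed no shift that passed. Of 27 listed, 11 were tested and 0 passed; 7 lay above 0 and 4 below, with a median of 0.067. The median of the 11 on each array had a mean of 0.13 over run 3, 0.18 over run 1 and -0.18 over run 2. Whether NCL differed from them was not tested. PES1, a factor of large ribosomal subunit maturation, was at -0.39 ± 0.27 (SE, n = 8) and, like NCL, turned without run 2, to 0.13. DDX21, a nucleolar RNA helicase, was at 0.29 ± 0.14.

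Genes of growth and metabolism that MYC is known to drive lay on both sides of 0. Of 26 listed, 17 were tested and 0 passed; 9 lay above 0 and 8 below, with a median of 0.027. GART, an enzyme of purine synthesis, was at -0.21 ± 0.25 (SE, n = 8), and at 0.097 without run 2. SHMT1, which supplies one-carbon units, was at -0.19 ± 0.15, at -0.083 without sample 1 at 12 h and at -0.058 without run 2. Of 14 nuclear and RNA-binding proteins 7 were tested, with 4 above 0, a median of 0.0010 and 0 that passed. PABPC1, the poly(A)-binding protein, was at 0.31 ± 0.41 (n = 7), or -0.053 without sample 1 at 12 h, and HNRNPU, a nuclear scaffold and RNA-binding protein, at 0.20 ± 0.17, or -0.0036 without run 2.

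PIM1 had a ratio below 0 on every array. It read -0.091 and -0.49 on samples 1 and 2 at 8 h, -1.72, -0.13 and -0.30 on samples 1, 2 and 3 at 12 h, and -0.37, -0.10 and -0.34 on samples 1, 2 and 3 at 24 h. Sample 1 at 12 h, of run 2, was the lowest by far, and the 3 values nearest 0 were those of run 3. Among rows with a value on every array 45 of 3460, 1.30%, were below 0 on all 8.

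The mean of PIM1 over the 3 times was -0.43 ± 0.19 (SE, n = 8; limma unadjusted p = 0.052, adjusted p = 0.87), and it was -0.26 ± 0.12 without sample 1 at 12 h and -0.17 ± 0.11 without run 2. The fitted means were -0.29 ± 0.37 at 8 h, -0.71 ± 0.30 at 12 h and -0.27 ± 0.30 at 24 h (adjusted p from 0.93 to 1.00). At 12 h the unadjusted p was 0.044, where 3.07% of rows were under 0.05, and without sample 1 the mean at that time was -0.21. By run PIM1 averaged -0.11 ± 0.017 in run 3 (SD, n = 3), -0.32 ± 0.028 in run 1 (n = 2) and -0.86 ± 0.74 in run 2 (n = 3). In rank it stood at percentile 28.3 to 31.9 in run 3, 13.0 and 29.2 in run 1, and 5.14 to 32.6 in run 2, so it lay in the lower part of every array but rarely near its end.

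The PIM1 features gave the same sign almost throughout. Feature 24416_1 was below 0 on 8 of 8 arrays, from -1.01 to -0.0020; 1.16% of features with a value on every array were. Feature 17231_1 was below 0 on 7 of 7, from -2.36 to -0.028, and 35728_1 on 6 of 6, from -0.76 to -0.010. Feature 24899_1 was below 0 on 7 of 8, its one value above 0 being 0.016 on sample 3 at 12 h. The share of all features with such counts was not taken for 17231_1, 35728_1 and 24899_1, so their counts are a description only. Fitted singly, 24416_1 averaged -0.35 ± 0.16, 24899_1 -0.35 ± 0.20 and 35728_1 -0.40 ± 0.18 (SE), and none passed (limma adjusted p = 0.87 for each). Feature 17231_1 had 1 value at 8 h and was not fitted alone. It and 35728_1 lacked values only in run 2, so the PIM1 mean rests on 3 features on each array of that run and on 4 elsewhere.

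PIM2 lay above 0 on 6 of 8 arrays. The share of all rows above 0 on at least 6 arrays was not taken, so this count is a description only. It read 0.22 and 0.47 on samples 1 and 2 at 8 h, -0.58, 0.37 and 0.68 on samples 1, 2 and 3 at 12 h, and -0.13, 0.50 and 0.24 on samples 1, 2 and 3 at 24 h. Both values below 0 came from run 2, and the times overlap. Its mean over the 3 times was 0.24 ± 0.17 (SE, n = 8, limma unadjusted p = 0.19, adjusted p = 0.87). It was 0.37 without run 2, which leaves only sample 1 at 8 h. The fitted means were 0.34 ± 0.33 at 8 h, 0.16 ± 0.27 at 12 h and 0.21 ± 0.27 at 24 h, and the 12 h value was -0.10 without sample 3. By run PIM2 averaged 0.36 ± 0.14 in run 3 (SD, n = 3), 0.46 ± 0.31 in run 1 (n = 2) and -0.080 ± 0.53 in run 2 (n = 3).

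Both PIM2 features were read on all arrays. Fitted singly, 38053_1 averaged 0.25 ± 0.15 and 38229_1 0.22 ± 0.21 (SE, n = 8). They differed by 0.016 to 0.51 on 7 arrays and by 1.07 on sample 1 at 24 h, where 38053_1 read 0.40 and 38229_1 -0.67. The mean of -0.13 on that array thus joins values of opposite sign. PIM2 stood at percentile 88.3, 95.1 and 96.3 in run 3 and at 96.5 and 84.9 in run 1, and at 72.3, 26.6 and 44.0 in run 2.

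PIM1 had a lower ratio than PIM2 on 8 of 8 arrays. The difference PIM1 minus PIM2 does not depend on how an array is centred. It was -0.31 and -0.96 at 8 h, -1.14, -0.49 and -0.98 at 12 h, and -0.24, -0.60 and -0.58 at 24 h, for the samples in order of their numbers, with a mean of -0.66 ± 0.33 (SD, n = 8). Run means were -0.47, -0.78 and -0.78 in runs 3, 1 and 2. As background, 19.1% of the other rows with a value on every array lay above PIM1 on all 8, and 10.8% lay below PIM2 on all 8. The difference was not tested, because it was picked out from 6 pairs after the values were seen. MYC exceeded PIM1 on 8 of 8 arrays as well, by 0.31 to 1.53, where 10.1% of the other rows lay below MYC on all 8, while MYC minus PIM2 was 0.085 ± 0.33 (SD, n = 8), with MYC higher on 7 arrays and PIM2 higher by 0.67 on sample 3 at 12 h.

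**Figure D4:**
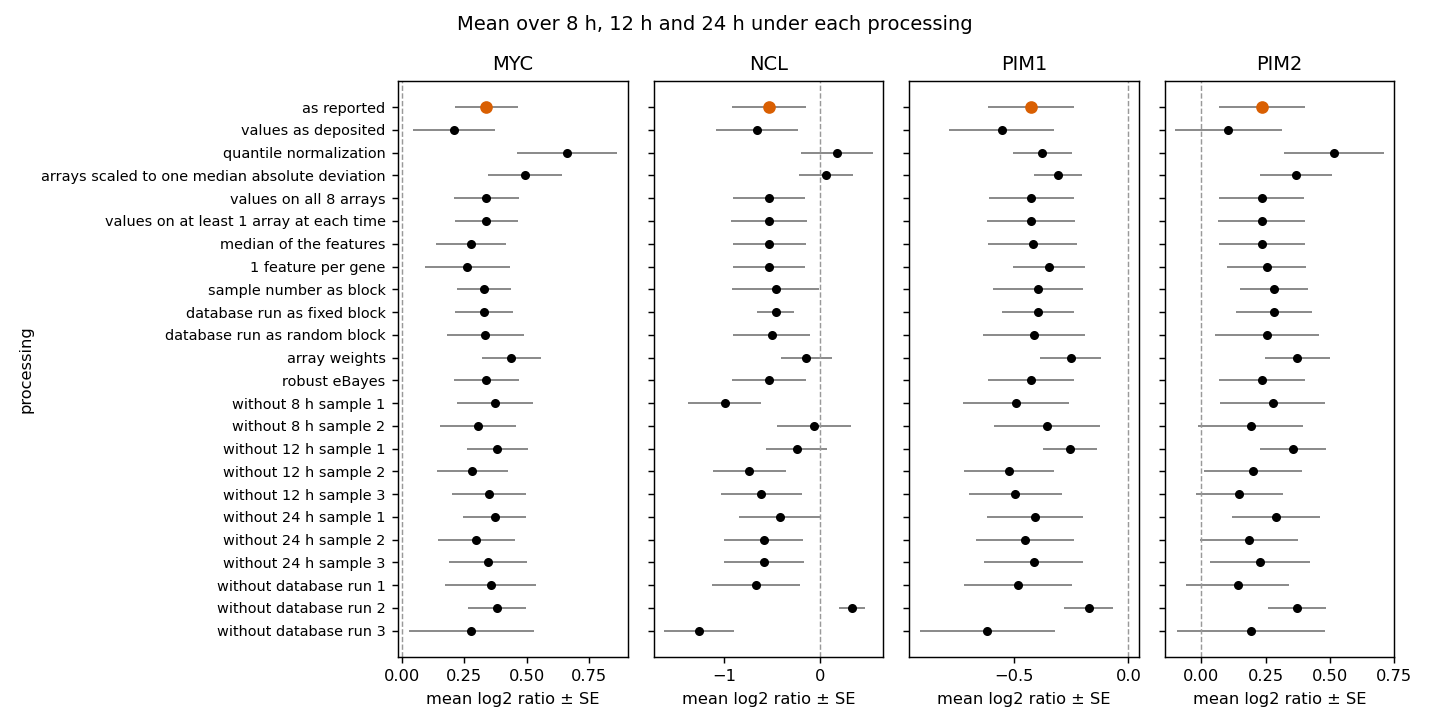
Mean log2 ratio over 8 h, 12 h and 24 h with its SE (x axis) for MYC, NCL, PIM1 and PIM2 under each processing (y axis); the orange point is the value as reported, and the x axes differ between genes. MYC and PIM2 stay above 0 and PIM1 below 0 under all 23 alternatives, and NCL turns under 3. Some alternatives, such as other row filters and robust variances, cannot move these means.

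Within the runs that hold more than 1 time the differences between times varied in size and, in part, in sign. From 12 h to 24 h MYC differed by 0.28, 0.32 and 0.16 in runs 1, 2 and 3, with the same sign in all 3 runs. NCL differed by 0.61, 1.84 and -0.13, PIM1 by -0.040, 1.34 and 0.023, and PIM2 by -0.44, 0.45 and 0.13. From 8 h to 12 h, which runs 2 and 3 hold, MYC differed by -0.87 and -0.069, NCL by -0.41 and -0.24 and PIM1 by -1.22 and -0.034, below 0 in both runs, while PIM2 differed by -1.05 and 0.15. From 8 h to 24 h, in the same runs, MYC differed by -0.55 and 0.091, NCL by 1.43 and -0.37, PIM1 by 0.12 and -0.011, and PIM2 by -0.60 and 0.29. The share of all rows whose differences keep their sign across runs was not taken, so the shared signs are a description only. None of the 12 differences between times that were fitted for the 4 genes passed in limma (adjusted p from 0.99 to 1.00, with 0% of rows called in each contrast). RNA of a whole culture does not tell fewer cells with a transcript from less of it per cell.

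The remaining PIM gene and the known substrates of the kinases did not pass either. Of 20 listed, 15 were tested; 6 lay above 0 and 9 below, with a median of -0.090. PIM3, closely related in sequence to PIM1, was at -0.37 ± 0.20 (SE, n = 8), with -1.49, -0.24 and -1.02 in run 2 at 8 h, 12 h and 24 h and -0.11 to 0.22 on the other arrays; without run 2 it was at 0.028. BAD, the death-promoting protein that PIM kinases inactivate, was at -0.36 ± 0.16 and below 0 on 8 of 8 arrays, from -1.09 to -0.017. Its 3 lowest values were those of run 2, without which it was at -0.099. Among all rows with a value on every array, 1.30% were below 0 on 8 of 8.

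Of 21 genes of the JAK-STAT route, which induces PIM genes, 17 were tested and 0 passed; 5 lay above 0 and 12 below, with a median of -0.11. The 2 genes with the largest means, IL10 and STAT5B, rested on 1 array of run 2. IL10, a cytokine that signals through STAT3, was at 1.32 ± 0.65 with 7.04 on sample 2 at 8 h, and at 0.12 without it. STAT5B, a transducer of cytokine signals, was at -0.96 ± 0.54 (n = 7) with -5.04 on the same array, and at -0.094 without it. IL2RG, the common chain of several cytokine receptors, was the list's one gene with an unadjusted p under 0.05, at -0.42 ± 0.13 (SE, n = 8; limma unadjusted p = 0.0093, adjusted p = 0.87). It lay below 0 on 8 of 8 arrays, from -0.82 to -0.040. Over all rows tested 3.4% had an unadjusted p under 0.05. Of rows with a value on every array, 1.30% were below 0 on all 8.

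The named genes whose ratios ran closest to each of the 4 were found by the mean absolute difference over the 8 arrays, among 2285 other genes with values on all of them. For MYC they were DHRS9 at 0.18, ZBTB38 at 0.22 and NPM1, the nucleolar protein nucleophosmin, at 0.23, where the median over genes was 0.52. For NCL they were CD2BP2 at 0.33, LIMD2 at 0.35 and PPP6R1, a subunit of protein phosphatase 6, at 0.35 (median 0.93). For PIM1 they were TGFB2, a growth factor, at 0.13, AURKB, a mitotic kinase, at 0.14 and KAT6B, a histone acetyltransferase, at 0.14 (median 0.52), and for PIM2 RPL21, a ribosomal protein, at 0.11, NME1, a nucleoside diphosphate kinase, at 0.16 and CSNK2A2, a subunit of casein kinase 2, at 0.16 (median 0.49). With each array divided by its SD, so that run 2 weighs less, DHRS9, CD2BP2 and KAT6B came first for MYC, NCL and PIM1, and RPL21 took place 3 for PIM2. Others dropped further: LIMD2 to place 326 for NCL, TGFB2 to 41 for PIM1, NPM1 to 34 for MYC and NME1 to 33 for PIM2. All arrays share the DMSO design and the same dyes, and the genes share the run structure, so likeness here is a description.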

How the data were processed

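The deposited table holds the authors' log2 ratios of the 2 channels of each array, 1 column per array; per the labels Cy5 carried the MLN120b sample and Cy3 the DMSO control, with RNA extracted by TRIzol. The log base, 2, is assumed for all arrays. On 1 array a size of 12.4 lies beyond 11.1, the limit of a natural log ratio of 16-bit intensities of 1 or more. Smaller corrected intensities could exceed that limit, so the base stays an assumption. How the authors corrected background, filtered and normalized is not given in the sources used here. Intensities were not used, signal over background is not known, and precision is limited by the number of arrays.

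Each array was centred on its median (deposited medians -0.48 to 0.0010). Features with 1 gene in the platform annotation (10169) took RefSeq symbols, by Entrez identifier for 10128 and by accession for 17, with 24 kept as listed; 5073 had none listed and 4 had several. All features of 1 gene were joined by their mean. Rows measured on 2 or more arrays of every time were fitted, 5411 in all, of which 3311 were named genes, and 7497 features were fitted singly. With limma 3.58.1 (lmFit and eBayes, in R 4.3.3), 1 mean per time was fitted over the 8 arrays and set against 0. The spread of the control enters only through the ratios and was not estimated by itself. Tests were 2-sided, adjusted by Benjamini-Hochberg, with a threshold of 0.05. The fit was tried on simulated data with independent errors, whose SD for a row was the same on all arrays, and with no run effect. Such data lack the unequal spread of these arrays and the likeness within runs, so the trial does not cover them. Python 3.11.15, pandas 2.3.3 and matplotlib 3.10.9 made the other values and plots.

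Named genes were the 4 genes, NFKBIA and TNFAIP3, the 2 tested genes with the largest mean in each pathway list, and the 3 genes most like each of the 4; MAX and IL2RG were named besides, after their values were seen. The genes and lists were chosen with earlier results of these data known. Alternatives were other normalizations, filters and ways to join features, sample number or database run as a block, array weights, robust variances, and each array or run left out. Sample numbers did not pair all arrays. Deviations from the time means of arrays with the same number correlated at -0.32 to -0.15 between 8 h and later times (4 pairs). Between 12 h and 24 h such deviations correlated at 0.20 to 0.30 (3 pairs, which are also the pairs of 1 database run). Arrays of 1 database run over all times correlated at 0.15 to 0.32 (7 pairs). With 2 arrays at 8 h, their deviations are mirror images (r = -1). The 4 negative values are therefore the same-run values of the 8 h arrays with the sign turned, not a separate result.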

Additional observations from a re-analysis of the deposited data

How the results depend on the processing

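The means over 3 times kept their direction under all 23 alternatives for MYC (0.21 to 0.66), PIM1 (-0.62 to -0.17) and PIM2 (0.11 to 0.52), and none of the 4 genes passed under any (smallest adjusted p 0.36). Some alternatives could not change a direction. Other row filters and robust variances leave the means of the 4 genes as they are. So do other ways to join features for NCL, which has 1, and the median of the features for PIM2. Leaving out 1 array in turn gave 0.28 to 0.38 for MYC, -0.996 to -0.070 for NCL, -0.52 to -0.26 for PIM1 and 0.15 to 0.36 for PIM2. NCL turned to 0.17 with quantile normalization, 0.058 with arrays scaled to one spread and 0.33 without run 2; the cause was not tested. The fit with sample number as a replicate block gave 0.33 for MYC, -0.47 for NCL, -0.40 for PIM1 and 0.28 for PIM2, and called 0 rows; it changed no call. With database run as a fixed block the 4 means were the same. In that fit limma's unadjusted p was 0.027 for MYC, 0.045 for NCL, 0.042 for PIM1 and 0.099 for PIM2 (adjusted p 0.36 to 0.48). These values leave out the spread between runs. The share of all rows under 0.05 in the run-block fit is not given here. The 3.4% given above belongs to the fit without blocks and is no background for these values.

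At single times NCL turned with quantile normalization (0.49 at 8 h, 0.23 at 24 h), arrays scaled to one spread (0.18 and 0.19), array weights (0.051 at 12 h, 0.25 at 24 h) and without run 2 (0.66, 0.043 and 0.28); leaving out arrays gave -2.13 to 0.66, -1.44 to 0.042 and -0.21 to 0.28. At 12 h MYC was at -0.095 and PIM2 at -0.022 on values as deposited, whose median over rows is lower, at -0.081 without run 3 and -0.10 without run 1, with leave-out ranges of -0.081 to 0.22 and -0.10 to 0.53. Without run 2, the values that turned were 0.097 for GART, -0.0036 for HNRNPU, -0.12 for IL10, 0.081 for MAZ, 0.13 for PES1, 0.028 for PIM3 and 0.0062 for STAT5B. GART was also at 0.038 after quantile normalization, 0.0063 with scaled arrays, 0.0032 with the median of its features, 0.072 with 1 feature and 0.081 with array weights, and PES1 at 0.062 after quantile normalization. Leave-out ranges that crossed 0 were -0.36 to 0.024 for GART, -0.0028 to 0.40 for HNRNPU, -0.17 to 0.80 for MYCN and -0.053 to 0.53 for PABPC1.

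No row passed in any contrast as reported; 184, 130, 166, 109 and 44 had an unadjusted p under 0.05 over 3 times, at 8 h, 12 h, 24 h and for 24 h against 8 h. Rows called over 3 times numbered 2 with quantile normalization, 2 with at least 1 array at each time, 6 with run as a fixed block and 10 without run 3, and 0 to 58 with 1 array left out. At 8 h they numbered 10 with at least 1 array at each time and 22 without run 3 (0 to 131 with 1 array left out), at 24 h 2 with quantile normalization, and for 24 h against 8 h 3 and 11 under the settings given for 8 h (0 to 77). For the 3 ranges with a count above 0, over 3 times, at 8 h and for 24 h against 8 h, the highest count came without sample 1 at 8 h, which leaves 1 array at that time, whose spread is assumed to equal that of the other times.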
